A study of Drosophila melanogaster with 23 samples.

Results

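The pericentromeric region of chromosome arm 3L comprised every 10-kb bin of 3L whose start lies at or above 23 Mb (dm6 assembly), up to the centromeric end of the assembled arm, that had contacts in each of 7 Hi-C maps. Of 512 bins in this stretch 482 met the rule, out of 14848 bins with contacts in every map and 15850 bins in all. The border and the condition on contacts chose the members, and the rule itself used no comparison between groups. It was set with earlier results of these data known. Median repeat-masked content was 34.7% per bin, against 15.7% in the remainder of the arm, and 37 protein-coding genes lay in the region (7.24 per Mb, against 117 per Mb along the arm).

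Pericentromeric heterochromatin is the gene-poor, repeat-rich chromatin beside a centromere, and its nucleosomes carry di- and trimethylated lysine 9 of histone H3 (H3K9me2/3). Heterochromatin protein 1 (HP1) reads this mark through its chromodomain and pairs with a further HP1 molecule through its chromoshadow domain. In early fly nuclei the centromeres gather at the apical side and the arms extend away from them, an arrangement called the Rabl configuration.

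In Hi-C, chromatin is crosslinked, cut with a restriction enzyme (here DpnII, which cuts at GATC) and ligated, so that joined fragments report which DNA segments lay close together. The maps came from hand-sorted *Drosophila melanogaster* embryos at stage 5, when the zygotic genome is activated, and from S2, a line of cultured fly cells. HP1-KD embryos (Bloomington #33400) came from mothers that expressed a hairpin RNA against HP1 in the germ line under a Gal4 driver (Bloomington #7063), a partial depletion, since embryos without HP1 do not reach this stage. HP1-rescue embryos carried HP1-KD together with pUASP::Flag-HA-HP1, an HP1 transgene that the hairpin does not target. H3K9M embryos expressed pUASP::H3.3K9M, histone H3.3 with methionine in place of lysine 9, through the same driver, and control embryos were of the stock Bloomington #36303. S2 cells received HP1 dsRNA 1, HP1 dsRNA 2 or, as S2 control, a dsRNA against GST made from a plasmid. The study describes an inversion on chromosome 2L in HP1-KD and HP1-rescue embryos. Contact with arms elsewhere is therefore also given without arm 2L. Values for the pericentromeric part of 2L in these maps were not adjusted for the inversion.

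Libraries of a group were pooled into a single map by the authors, 5 for HP1-KD, 3 for HP1-rescue, 2 for H3K9M and 7 for control embryos and 2 for each S2 group. No value below has a replicate error, no difference could be set against the spread between libraries, and no test was made. Instead, the region was divided into 5 segments of about 1 Mb, and their range and SD describe how even a difference was along it. Between the 5 long arms and chromosome 4 the embryo maps held 186811768 (HP1-KD), 75498606 (HP1-rescue), 63605550 (H3K9M) and 299686535 (control) contacts, and the S2 maps 46097437 (dsRNA 1), 54166262 (dsRNA 2) and 34823354 (S2 control). Contact levels below are the mean balanced value per pair of 10-kb bins, with each map scaled to the same total, and a ratio is the log2 of a level over that of the control map of the same source. The 95% counting interval of each ratio was narrower on either side than the SD over segments, and came closest to it for proximal 2L with dsRNA 2.

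A set of 4 stretches of 300 bases, 1 from a bin of each of the 4 windows named below, shows what the mapped sequence is like, each centred on a DpnII site (capitals) on the plus strand of dm6 as held by RefSeq. The first 2 come from the 100-kb windows whose contact with other pericentromeric regions was highest in HP1-KD relative to control embryos, and the last 2 from the windows where it was lowest.

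chr3L:24624892-24625191: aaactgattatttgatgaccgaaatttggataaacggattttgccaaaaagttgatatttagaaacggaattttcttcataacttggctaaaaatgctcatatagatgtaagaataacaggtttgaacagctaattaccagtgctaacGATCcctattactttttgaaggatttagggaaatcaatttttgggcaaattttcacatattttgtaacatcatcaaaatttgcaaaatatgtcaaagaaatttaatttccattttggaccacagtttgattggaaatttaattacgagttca

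chr3L:27006732-27007031: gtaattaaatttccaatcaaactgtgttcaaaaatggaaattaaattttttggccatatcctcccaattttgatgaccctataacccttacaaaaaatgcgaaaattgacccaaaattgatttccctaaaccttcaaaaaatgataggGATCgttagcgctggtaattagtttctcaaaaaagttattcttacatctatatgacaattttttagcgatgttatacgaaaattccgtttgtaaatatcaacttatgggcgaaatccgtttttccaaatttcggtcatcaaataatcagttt

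chr3L:27665067-27665366: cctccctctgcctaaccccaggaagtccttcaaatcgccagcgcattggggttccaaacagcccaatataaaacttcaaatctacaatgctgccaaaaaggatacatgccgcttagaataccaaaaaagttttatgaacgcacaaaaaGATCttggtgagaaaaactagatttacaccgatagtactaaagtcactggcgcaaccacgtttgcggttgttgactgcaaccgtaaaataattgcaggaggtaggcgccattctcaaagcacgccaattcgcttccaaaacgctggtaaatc

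chr3L:27864432-27864731: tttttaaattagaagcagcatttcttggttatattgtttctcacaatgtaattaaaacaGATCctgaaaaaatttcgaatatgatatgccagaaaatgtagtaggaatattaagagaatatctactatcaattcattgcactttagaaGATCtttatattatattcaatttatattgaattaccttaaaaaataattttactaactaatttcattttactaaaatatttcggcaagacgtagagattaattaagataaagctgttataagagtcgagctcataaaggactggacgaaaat

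The first 2 sequences are similar and AT-rich, in opposite orientation. The first and the reverse complement of the second were identical at 257 of 303 aligned columns (84.8%), whereas the longest alignment of any other pair had 178 columns (56.7% identical). Both lay wholly in repeat-masked sequence and had a GC content of 29.3% and 30.7%. The third (44.3% GC) held no masked base, and the fourth (25.3% GC, 60.3% masked) held 2 DpnII sites. Over the region a bin held a median of 31 DpnII sites, against 26 on the arm, so that cutting sites were not scarcer in the region.

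In embryos most contacts of the region stayed inside it, counting those within a bin and between neighbouring bins. Outside it, unplaced scaffolds with the mitochondrial genome took 13.4% of balanced contacts in HP1-KD, 10.95% in HP1-rescue, 12.97% in H3K9M and 12.4% in control embryos. Among placed sequence the own arm and the facing pericentromeric region of 3R were the largest partners in HP1-KD. The rank of unplaced sequence depended on balancing. Without it, unplaced sequence took 3.77% in HP1-KD and 2.91% in control embryos. The own arm then took 12.5% and 5.38%, and the facing region of 3R 4.32% and 6.35%. Contacts inside the region at 20 kb or more took 39.3% of its balanced contacts in HP1-KD, 36.8% in HP1-rescue, 40.1% in H3K9M and 41.2% in control embryos. The own arm took 7.78%, 4.89% and 5.52% in HP1-KD, HP1-rescue and H3K9M embryos, against 3.50% in control embryos. The share of proximal 3R (3R up to 4.2 Mb) ran the other way, with 5.27%, 6.14% and 6.10% in the same 3 maps and 7.37% in control embryos. HP1-KD embryos thus had the largest own-arm share and the smallest share of proximal 3R among embryo maps. In the HP1-rescue map 17.9% of the region's balanced contacts lay within a single bin, with 10.7% in HP1-KD, 9.89% in H3K9M and 10.9% in control embryos, a difference that lowers every other share of the rescue map and whose origin was not tested. In S2 cells the own arm took 5.00% with dsRNA 1 and 4.78% with dsRNA 2, against 4.54% in S2 control, and contact inside at 20 kb or more took 26.4%, 26.9% and 27.3%.

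**Figure D1:**
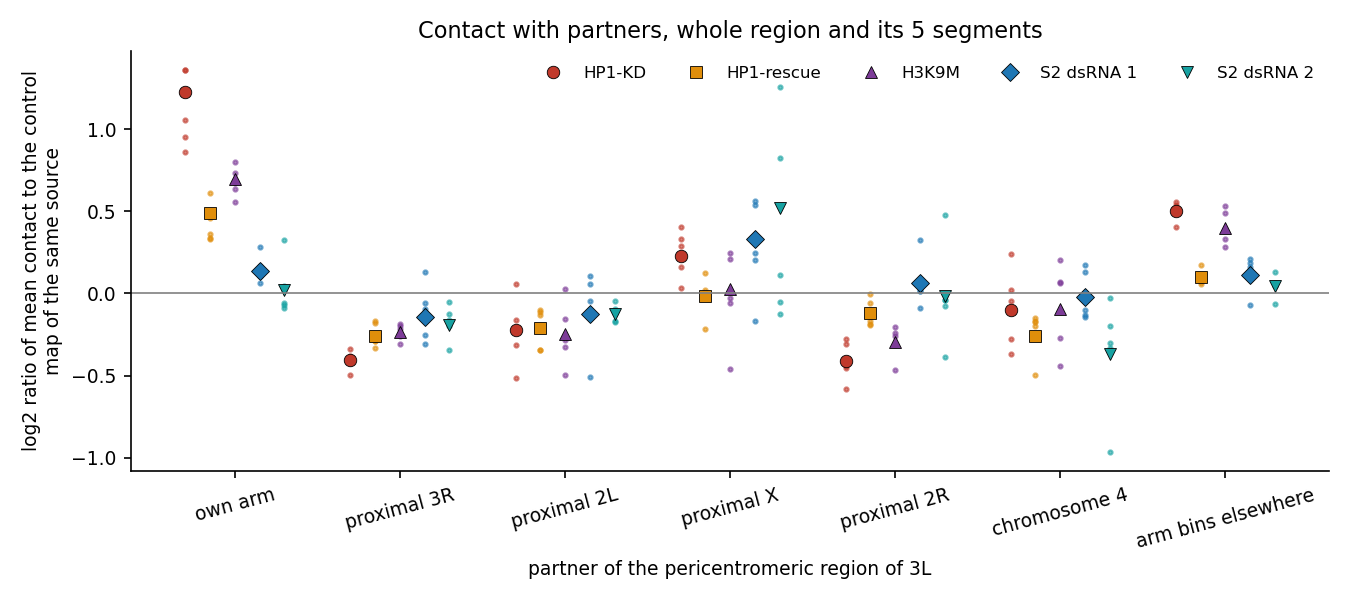
Log2 ratio of mean contact to the control map of the same source (y axis) for each partner of the pericentromeric region of 3L (x axis). Large symbols give the whole region and small points its 5 segments, and HP1-KD embryos stand highest for the own arm (1.23), with all 5 segments above 0.

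Contact with the own arm was the measure on which the embryo maps differed most. The region and its arm had a mean contact of 0.159 (HP1-KD), 0.0950 (HP1-rescue) and 0.110 (H3K9M), against 0.0677 in control embryos, from 578829, 137189, 136486 and 377964 contacts. All 3 maps were above control, by 2.34-fold (log2 1.23), 1.40-fold (log2 0.49) and 1.62-fold (log2 0.70), and the rescue map lay between HP1-KD and control. The order of the segments along the region, from the arm border to the centromere, was 1.36, 1.36, 1.06, 0.95 and 0.86 in HP1-KD (SD 0.23), so that the ratio declined towards the centromere. In H3K9M embryos it did not decline in this way, with 0.73, 0.67, 0.64, 0.80 and 0.56. The HP1-rescue segments ran between 0.33 and 0.61. Over the alternative settings the HP1-KD ratio lay between 1.05 and 1.40 and the H3K9M ratio between 0.66 and 0.84. In S2 cells the levels were 0.106 with dsRNA 1 and 0.0973 with dsRNA 2, against 0.0961 in S2 control. The log2 ratios were 0.14 and 0.018, and both were below 0 without balancing.

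How far along the arm this extended differed between HP1-KD and H3K9M embryos. In arm bins 1 to 2 Mb from the border the region had a contact of 0.671 (HP1-KD), 0.324 (HP1-rescue) and 0.357 (H3K9M), against 0.188 in control embryos, a log2 ratio of 1.84, 0.78 and 0.92. At 15 to 23 Mb, the telomeric end of the arm, the levels were 0.0196, 0.0152 and 0.0259, against 0.0138 in control embryos, with ratios of 0.50, 0.14 and 0.90. The HP1-KD ratio was thus highest at 1 to 2 Mb and declined over the next distance classes (1.42 at 2 to 5 Mb, 1.26 at 5 to 10 Mb and 0.76 at 10 to 15 Mb). In H3K9M embryos it lay between 0.72 and 0.93 in all classes past 1 Mb. It was higher than in HP1-KD embryos at 15 to 23 Mb and slightly higher at 10 to 15 Mb (0.83). Scaling to contacts between chromosomes adds 0.17 to HP1-KD ratios and 0.054 to H3K9M ratios. That would reverse the order at 10 to 15 Mb but not at 15 to 23 Mb. The border class, 0 to 1 Mb, had ratios of 1.08, 0.45 and 0.51.

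Bins of arm 3R at the same distances from their own pericentromeric border also had ratios above 0 in HP1-KD embryos in each class. The ratios were 0.27 at 0 to 1 Mb, 0.97 at 1 to 2 Mb, 1.10 at 2 to 5 Mb, 0.95 at 5 to 10 Mb, 0.75 at 10 to 15 Mb and 0.51 at 15 to 23 Mb. From 10 Mb outwards they were close to those for the own arm, and at the border lower. In H3K9M embryos they ran between 0.040 at the border and 0.81 at 15 to 23 Mb.

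**Figure D2:**
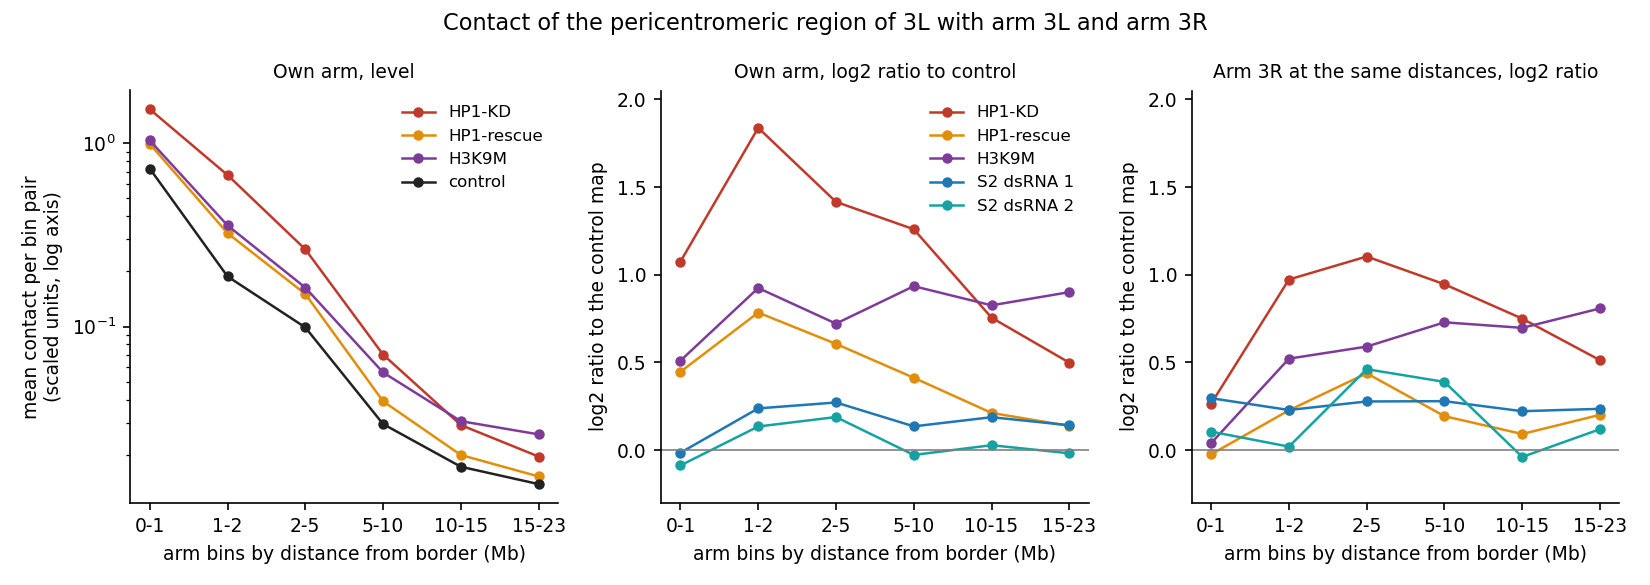
Contact of the pericentromeric region of 3L with arm bins by their distance from the pericentromeric border (x axis, Mb), as a level on a log axis for the 4 embryo maps (left), as a log2 ratio to control for the own arm (middle) and for arm 3R (right). The HP1-KD ratio peaks at 1 to 2 Mb of the own arm (1.84) and falls to 0.50 at 15 to 23 Mb, where H3K9M has 0.90.

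Contact with the pericentromeric regions of 3R, 2L and 2R was lower in all 3 embryo maps than in control embryos. With proximal 3R the mean contact was 0.594 (HP1-KD), 0.659 (HP1-rescue) and 0.670 (H3K9M), against 0.788 in control embryos, from 199623, 97565, 77277 and 446618 contacts. The log2 ratios were -0.41, -0.26 and -0.23, and all 5 segments were below 0 in each of these maps. With proximal 2L (2L from 22 Mb) the levels were 0.425, 0.428 and 0.419, against 0.497 in control embryos (log2 -0.22, -0.21 and -0.25), but the HP1-KD segments ranged from -0.51 to 0.058. Scaled to contacts between chromosomes, the HP1-rescue ratio came to -0.0053 for proximal 3R and 0.040 for proximal 2L, so the lower contact of the rescue map depended on the total to which maps were scaled. The proximal part of 2R, up to 6 Mb, had 0.311, 0.382 and 0.337, against 0.414 in control embryos.

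Proximal X (X from 22.5 Mb) did not follow the other regions. Its contact with the region was 0.119 (HP1-KD), 0.100 (HP1-rescue) and 0.103 (H3K9M), against 0.101 in control embryos, from 9797, 4021, 3487 and 14986 contacts. The HP1-KD ratio of 0.23 had all 5 segments above 0, between 0.036 and 0.40, whereas the other ratios (-0.015 and 0.026) were smaller than their spread over segments.

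Chromosome 4, a small chromosome that is largely heterochromatic, differed along the region. The mean contact was 0.306 (HP1-KD), 0.274 (HP1-rescue) and 0.307 (H3K9M), against 0.328 in control embryos. In HP1-KD embryos the ratio was -0.37 in the segment at the arm border and -0.28, -0.045, 0.023 and 0.24 in those that follow towards the centromere. H3K9M embryos gave -0.44, -0.27, 0.062, 0.067 and 0.20. In both maps the ratio thus increased from the border segment to the centromeric one, and the mean over the region (-0.10 and -0.097) was smaller than the spread. The HP1-rescue map was below control in all 5 segments, from -0.50 to -0.15.

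Contact with arm bins elsewhere, that is on 2L, 2R, 3R and X outside their pericentromeric parts, was 0.0355 (HP1-KD), 0.0268 (HP1-rescue) and 0.0331 (H3K9M), against 0.0251 in control embryos. The ratios were 0.50, 0.099 and 0.40, and all 5 segments were above 0 in each map. HP1-KD segments were even, from 0.40 to 0.56. Among single arms the HP1-KD ratio was highest for arm 3R, the other arm of the same chromosome (0.72), followed by arm 2L (0.53), arm 2R (0.34) and arm X (0.24). In H3K9M embryos arm 3R (0.54) and arm 2L (0.50) stood close together, and arm X (0.081) had a ratio below its spread over segments (SD 0.30). Without arm 2L the ratios for all arms together stayed within 1 SD of the values above.

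Inside the region HP1-KD embryos were above control at 500 to 1000 kb, and HP1-rescue and H3K9M embryos were below it at 1 to 5 Mb. At 20 to 100 kb the mean contact was 89.4 (HP1-KD), 88.1 (HP1-rescue) and 105 (H3K9M), against 99.5 in control embryos (log2 -0.15, -0.18 and 0.077). Scaled to contacts between chromosomes the first 2 ratios became 0.011 and 0.076. At 100 to 500 kb the levels were 15.8, 13.97 and 15.6, against 15.4 in control embryos, and HP1-KD (0.035) and H3K9M (0.018) differed from control by less than the spread over segments.

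At 500 to 1000 kb the HP1-KD map stood apart, with 5.68, while HP1-rescue had 4.30 and H3K9M 4.41, against 4.40 in control embryos. The HP1-KD ratio was 0.37 and increased along the segments from 0.19 at the arm border to 0.54 at the centromeric end. At 1 to 2 Mb the levels were 3.32, 2.58 and 2.53, against 2.85 in control embryos, with a HP1-KD ratio of 0.22, no larger than its SD over segments, and segments from -0.039 to 0.47. HP1-rescue and H3K9M embryos were below control there (-0.14 and -0.17, all 5 segments below 0), while the rescue ratio was 0.11 when scaled to contacts between chromosomes. At 2 to 5 Mb, the span of the region, all 3 maps were below control, with 1.68, 1.504 and 1.499, against 1.80 (log2 -0.097, -0.26 and -0.26), and all 5 segments were below 0 in each. Scaled to contacts between chromosomes the ratios were 0.069 in HP1-KD and -0.0034 in HP1-rescue, and the H3K9M ratio stayed between -0.30 and -0.21 over the alternatives.

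**Figure D3:**
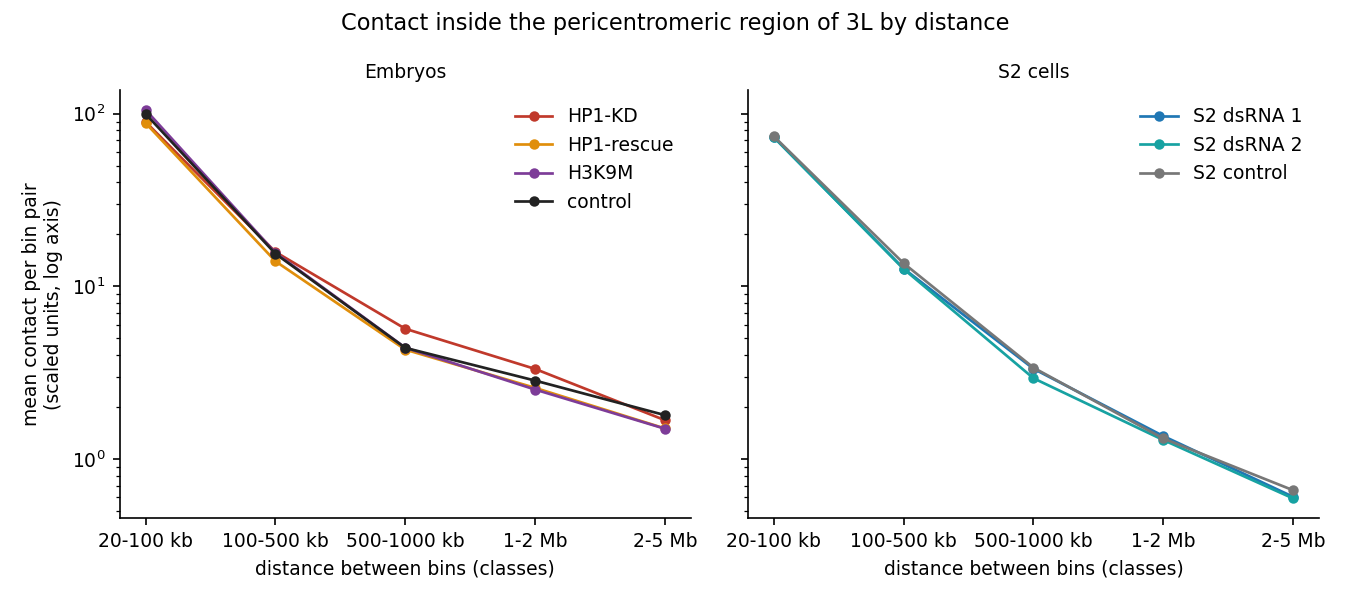
Mean contact per bin pair inside the pericentromeric region of 3L (y axis, log scale) by class of distance between bins (x axis) for the 4 embryo maps (left) and the 3 S2 maps (right). The HP1-KD line lies above control embryos at 500 to 1000 kb (5.68 against 4.40), and the 3 S2 lines lie close together.

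The decay of contact between 100 kb and 1 Mb had an exponent of -0.962 (HP1-KD), -1.08 (HP1-rescue) and -1.18 (H3K9M), against -1.16 in control embryos. It was shallower than control by 0.20 in HP1-KD and by 0.080 in HP1-rescue, with all 5 segments in the same direction, and H3K9M differed by -0.022. The difference depended on the range: over 200 kb to 2 Mb it was 0.041 for HP1-KD, -0.015 for HP1-rescue and -0.075 for H3K9M.

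At 500 kb to 5 Mb the HP1-KD ratios inside the region were smaller than those inside the remainder of arm 3L, measured in the same maps. On the arm the HP1-KD ratio was 1.21 at 500 to 1000 kb, 1.31 at 1 to 2 Mb and 0.81 at 2 to 5 Mb. The HP1-rescue ratio on the arm was 0.60 at 500 to 1000 kb and the H3K9M ratio 0.49. Inside proximal 3R, the region facing it across the centromere, HP1-KD had 0.39 at 500 to 1000 kb and 0.24 at 1 to 2 Mb, close to the values for 3L. Inside proximal 2L it had 0.55 and 1.28, and inside proximal X 1.33 at 500 to 1000 kb. These regions are short, with 143 and 104 used bins, so their longest classes join mostly bins near opposite ends. The values of 1.28 and 1.33 rest on 14355 and 10225 HP1-KD contacts and are not like for like with those for 3L. Contact of proximal 3R with its own arm had ratios of 1.17 (HP1-KD), 0.36 (HP1-rescue) and 0.62 (H3K9M). None of these differences between regions was tested.

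In windows of 100 kb the comparison was set against all windows of the 5 long arms. Of 1322 windows with values 50 lay in the region. Here and below, windows of 3L were measured with proximal 3R, 2L and X together. Windows of each other arm were measured with those of these regions, and the region of 3L, that lie on other arms. Pericentromeric shares and medians over all windows thus cover differing sets of partners. Contact with proximal 3R, 2L and X together was lower than in control embryos in 47 of 50 windows in HP1-KD (median log2 -0.41, against 0.37 over all windows), 47 in HP1-rescue (median -0.24, against -0.050) and 48 in H3K9M embryos (median -0.25, against 0.41). A 1.5-fold lower contact was reached by 4 of the 50 in HP1-KD (1.51% of all windows), by 1 in HP1-rescue (5.82%) and by 0 in H3K9M (1.97%), and with maps scaled to contacts at 20 kb or more by 16 (HP1-KD, 5.37%), 0 (HP1-rescue, 4.08%) and 1 (H3K9M, 2.72%). None of the 50 reached a 1.5-fold higher contact, while 26.3% of all windows did in the HP1-KD map, 6.05% in HP1-rescue, and 32.9% with H3K9M. The region thus ran opposite to most windows of the arms in HP1-KD and H3K9M embryos. This was not particular to 3L. Contact of proximal 3R and proximal 2L with the pericentromeric regions of other arms had ratios of -0.37 and -0.24 in HP1-KD embryos. In H3K9M embryos these were -0.24 and -0.27, while proximal X had 0.12 in HP1-KD and -0.042 in H3K9M. Contact with arm bins of other arms was 1.5-fold higher in 15 of 50 windows in HP1-KD (3.18% of all windows), 1 in HP1-rescue (0.0756%) and 12 in H3K9M (3.93%), and it was higher at all in 50, 36 and 47 windows (medians 0.53, 0.13 and 0.42, against -0.17, -0.26 and -0.071 over all windows). A 1.5-fold lower contact with these bins was reached by 1 window in HP1-rescue (0.378% of all windows) and 0 in H3K9M (0.151%). Proximal 3R and proximal 2L were above control on this measure too, with 0.29 and 0.43 in HP1-KD and 0.38 and 0.40 in H3K9M. Proximal X had -0.012 and 0.034 in these 2 maps. With maps scaled to contacts at 20 kb or more, 3 windows in HP1-KD were 1.5-fold higher (0.832%). At 500 to 1000 kb the reverse held: 9 of 50 windows in HP1-KD were 1.5-fold higher, against 88.8% of all windows, 2 in HP1-rescue (53%) and 2 in H3K9M (22.8%), while 0 windows in H3K9M were 1.5-fold lower (0.151%). With maps scaled to contacts at 20 kb or more, 3 windows in HP1-KD were higher (85.6%).

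**Figure D4:**
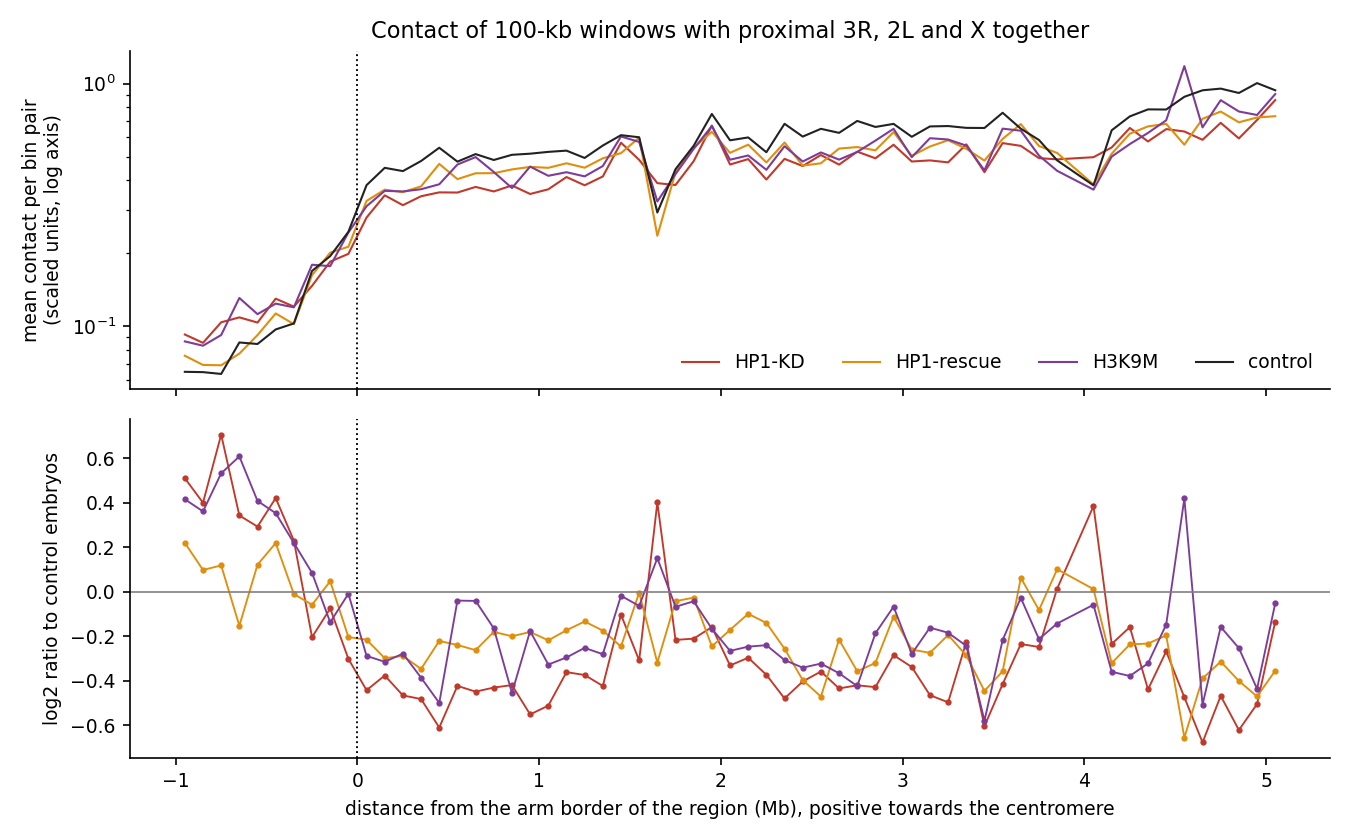
Contact of 100-kb windows with proximal 3R, 2L and X together, as a level on a log axis (top) and as a log2 ratio to control embryos (bottom), by distance from the arm border of the region (x axis, Mb, dotted line at 0, the region to its right; windows with under 5 used bins are left out). HP1-KD lies above control on the arm side and below it in 47 of the 50 windows of the region, with 2 peaks at log2 0.40 and 0.39.

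The 2 windows with the highest and the 2 with the lowest HP1-KD ratio were named by rule, so their order is a description. The highest, chr3L:24600001-24700000, holds no protein-coding gene and had a contact of 0.388 (HP1-KD), 0.236 (HP1-rescue) and 0.326 (H3K9M), against 0.294 in control embryos, from 1813, 676, 689 and 2692 contacts. Its HP1-KD ratio was 0.40, and the HP1-rescue ratio of -0.32 had the opposite sign. The second, chr3L:27000001-27100000, holds CG40228 and had 0.497, 0.384 and 0.365, against 0.380 in control embryos (HP1-KD log2 0.39). Both windows hold bins rich in contacts with unplaced scaffolds, described further on, and without these bins the HP1-KD ratios were 0.34 over 4 bins and 0.45 over 3 bins. The lowest, chr3L:27600001-27700000, holds no protein-coding gene and had 0.586, 0.716 and 0.660, against 0.938 in control embryos (log2 -0.68, -0.39 and -0.51). Close by, chr3L:27800001-27900000 holds eIF4B, a translation initiation factor, and had 0.594, 0.692 and 0.767, against 0.914 in control embryos (log2 -0.62, -0.40 and -0.25).

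The genes of the region are few and often long: 8 of its 37 protein-coding genes exceed 50 kb, against 55 of 2702 on the arm, and the median length was 9.92 kb, against 2.11 kb. Values were taken for 9 genes of a list of 10, the other (Pzl) not being placed in the region by the annotation, and contact of the bins of each with proximal 3R, 2L and X was lower than in control embryos for all 9 in both HP1-KD and HP1-rescue, and for 8 in H3K9M. This is the share of the region as a whole, since 36 of its 37 protein-coding genes were lower in each of these maps. AGO3 (chr3L:23554593-23689640), a PIWI protein of the piRNA pathway that silences transposons, was the exception in H3K9M embryos. It had 0.368 (HP1-KD), 0.424 (HP1-rescue) and 0.525 (H3K9M), against 0.486 in control embryos. Its contact with the own arm was 0.297, 0.153 and 0.170, against 0.0859 in control embryos, and the HP1-KD ratio of 1.79 was the highest of the 9.

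Further towards the centromere, nvd (chr3L:24324866-24401655), which encodes the oxygenase that starts the synthesis of the moulting hormone ecdysone from cholesterol, had an own-arm contact of 0.207 (HP1-KD), 0.107 (HP1-rescue) and 0.133 (H3K9M), against 0.0693 in control embryos (HP1-KD log2 1.58), and a pericentromeric ratio of -0.46 in HP1-KD. For nAChRalpha4 (chr3L:23206669-23287448), a subunit of the nicotinic acetylcholine receptor, and Snap25 (chr3L:24074180-24299205), a SNARE protein of vesicle fusion, the HP1-KD own-arm ratios were 1.42 and 1.37. Beyond it, scro (chr3L:24724162-24758036), a homeodomain factor, had 0.97 and Set1 (chr3L:25107594-25115180), a methyltransferase for lysine 4 of histone H3, 0.93. Of these 9 genes the 3 closest to the centromere were vtd, RpL15 and Dbp80, and vtd (chr3L:27136525-27157999), the cohesin subunit Rad21, had 0.88 and Dbp80 (chr3L:27279316-27422159), a DEAD-box RNA helicase, 1.01. RpL15 (chr3L:27267255-27268445), a protein of the large ribosomal subunit that fills part of 1 bin, had 0.27 in HP1-KD, the lowest of the 9, and -0.44 in HP1-rescue. Contact of these bins inside the region at 100 kb or more differed from control embryos by -0.082 (nAChRalpha4) to 0.31 (vtd) in HP1-KD embryos.

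Domain borders inside the region were set by minima of contact in a 100-kb diamond in control embryos. Of 24 minima 20 had values in all embryo maps, with a mean log2 depth of 0.525 (HP1-KD), 0.548 (HP1-rescue) and 0.613 (H3K9M), against 0.626 in control embryos. They were shallower than control at 16 minima in HP1-KD (mean difference -0.10, SD 0.13), 13 in HP1-rescue (-0.079) and 11 in H3K9M (-0.013). With a 200-kb diamond the mean differences were -0.048 (HP1-KD), -0.014 (HP1-rescue) and 0.025 (H3K9M). The minima were picked in the control map, a choice that favours greater depth there. On arm 3L, where 167 minima were picked in the same way, the mean difference was -0.27 (HP1-KD), -0.10 (HP1-rescue) and -0.091 (H3K9M). The deepest minima of the region lay 1580 and 1650 kb from the arm border, with depths of 2.22 and 2.29 (HP1-KD), 2.16 and 2.64 (HP1-rescue) and 2.59 and 2.89 (H3K9M), against 2.59 and 2.61 in control embryos. Both weigh heavily in the means above, which were not also taken without them.

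The first of these deepest minima (chr3L:24580000) lies beside, and the second (chr3L:24650000) within, a run of bins that contacted sequence outside the assembled chromosomes. In control embryos 15 bins of the region had 20% or more of their whole contacts with unplaced scaffolds, a group that was noticed after the values were seen and is given as a description. Of these, 6 lay in chr3L:24590001-24660000, 8 in chr3L:26880001-27080000 and 1 at chr3L:27800001-27810000. In the first block unplaced scaffolds took 32.8% (HP1-KD), 37.4% (HP1-rescue) and 39.6% (H3K9M) of whole contacts, against 41.6% in control embryos, and 37.8% and 39.8% with dsRNA 1 and dsRNA 2, against 38.5% in S2 control. In the second block the shares were 32.4%, 41.0% and 36.3%, against 36.4% in control embryos. In the remaining 467 bins they were 2.13%, 1.73% and 1.78%, against 1.53% in control embryos, so that the HP1-KD share was below control in both of these blocks and above it in the remaining 467 bins. In the single bin of the third it was 24.3%, against 25.7% in control embryos. The 15 bins were picked for a high share in the control map, a choice that favours a lower share in the other maps. The scaffold most contacted in each map held 7.85% of the first block's whole contacts for HP1-KD, 8.79% for HP1-rescue and 10.3% for H3K9M, against 11.5% in control embryos.

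Contact of these blocks inside the region was low in control embryos and differed more between embryo maps than that of other bins. Picking bins by a high unplaced share in the control map may favour a low contact inside there. It may thus raise the embryo ratios, and its part in them was not tested. At 200 kb to 1 Mb the first block had 2.79 (HP1-KD), 1.63 (HP1-rescue) and 1.62 (H3K9M), against 0.791 in control embryos (log2 1.82, 1.05 and 1.04). The second block had 6.17, 3.51 and 3.72, against 2.97 in control embryos (log2 1.06, 0.24 and 0.33). In the remaining bins the levels were 8.18, 6.64 and 6.93, against 6.96 in control embryos (log2 0.23, -0.069 and -0.0054). In S2 cells, whose maps did not enter the choice, the first block had 1.37 with dsRNA 1 and 1.64 with dsRNA 2, against 1.58 in S2 control. The log2 ratios with dsRNA 1 and dsRNA 2 were -0.20 and 0.062 there, and -0.25 and -0.25 in the second block. Without the 15 bins no value for a partner, a distance class or the exponent moved by 1 SD over segments or more. Insulation was not measured without them.

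**Figure D5:**
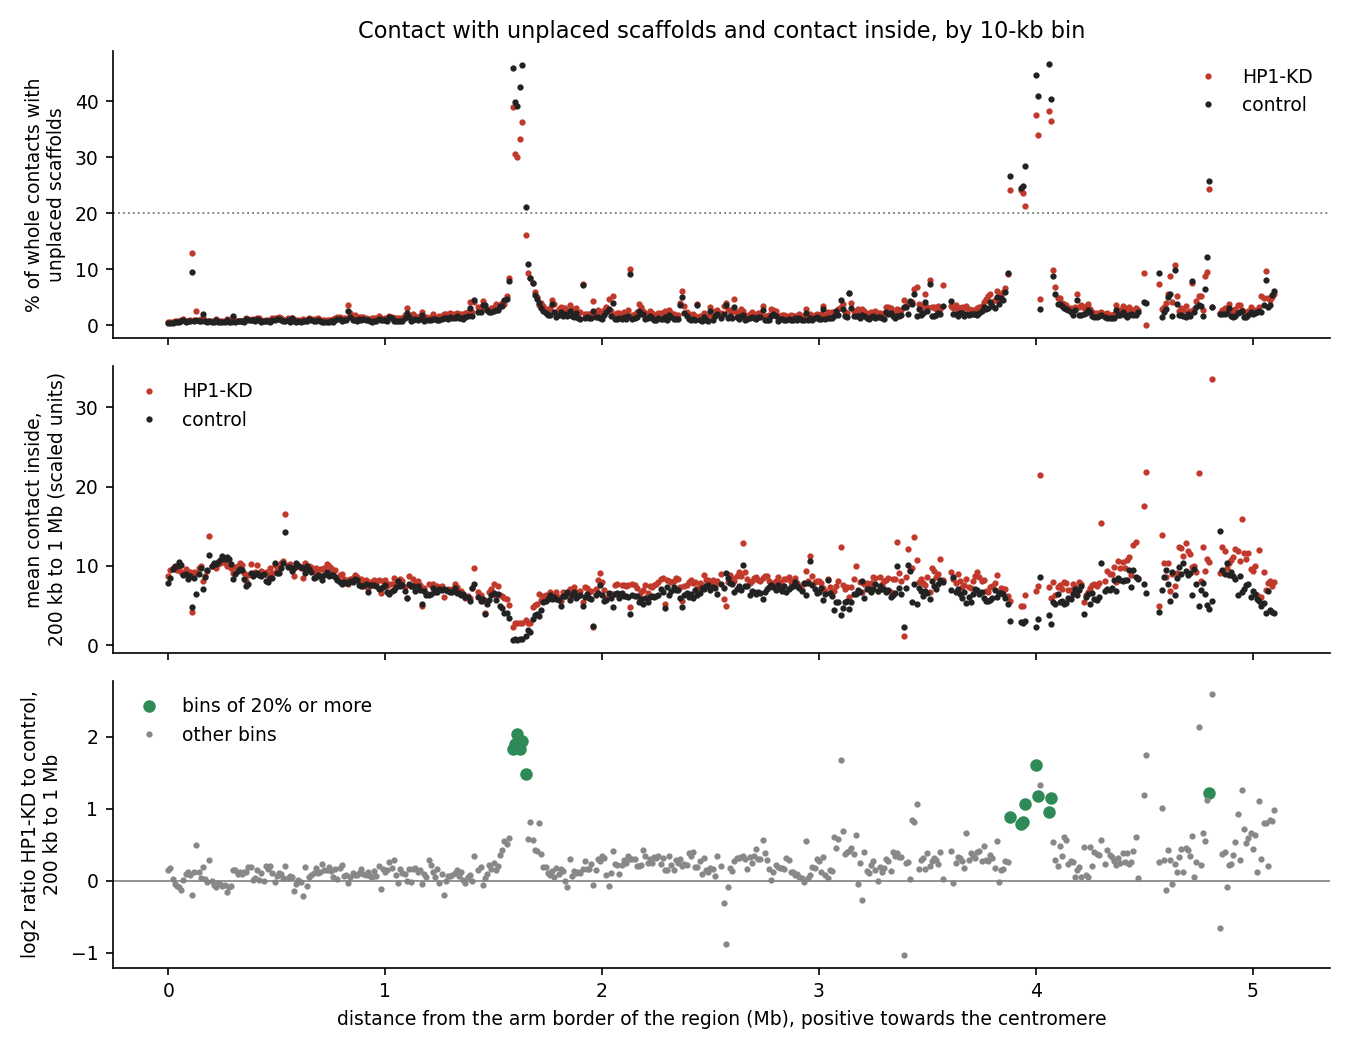
Percent of a bin's whole contacts with unplaced scaffolds (top, dotted line at 20%), mean contact inside the region at 200 kb to 1 Mb (middle) and its log2 ratio of HP1-KD to control embryos (bottom), by distance from the arm border (x axis, Mb), 1 point per 10-kb bin. The first block of high bins has a low contact inside, 2.79 in HP1-KD and 0.791 in control embryos, and the highest run of ratios. High bins were picked in control embryos, a choice that may raise these ratios.

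The first 2 sequences were taken from bins of these blocks by choice, so their place there is no result. The 15 bins had a median GC content of 32.4% and 91.1% masked bases, against 39.0% and 34.0% in the remaining bins of the region. The 5-base word AATAT, counted on both strands, occurred 78 times per bin in the median, against 61 in the remaining bins, and AAGAG 2 times, against 24. For each bin of the assembly, the share of its 16-base words that occur in the bin of the first sequence was taken. It was 10% or more in 14 of 503 bins of the region with sequence, that bin included, and in 4 of 152 bins of proximal 2L. On the own arm 0 of 2300 bins reached it, in proximal 3R 0 of 420, and on unplaced scaffolds 364 of 2089. Reads from near-identical copies may be placed on any of them, and the part of such placement in the values of these bins was not tested.

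In S2 cells, where the question was whether HP1 is needed to keep a fold already made, the 2 HP1 dsRNA maps were set against S2 control. Contact with chromosome 4 was 0.150 with dsRNA 1 and 0.118 with dsRNA 2, against 0.153 in S2 control (log2 -0.023 and -0.37), and the dsRNA 2 map was below S2 control in all 5 segments, from -0.96 to -0.026. Contact with proximal 3R was 0.334 with dsRNA 1 and 0.323 with dsRNA 2, against 0.369 in S2 control (log2 -0.14 and -0.19), with segments from -0.31 to 0.13 and from -0.34 to -0.052. Contact with proximal 2L was 0.178 and 0.178, against 0.194 in S2 control (log2 -0.13 and -0.13), with segments from -0.51 to 0.11 and from -0.17 to -0.048. Contact with arm bins elsewhere was 0.0504 and 0.0481, against 0.0466 in S2 control, a ratio of 0.11 and 0.046. Inside the region at 500 to 1000 kb the levels were 3.33 and 2.94, against 3.38 in S2 control (log2 -0.021 and -0.20). The dsRNA 2 map was below S2 control in all 5 segments there, and the dsRNA 1 map in 3. Proximal X stood out with 0.104 and 0.118, against 0.0824 in S2 control (log2 0.33 and 0.52), but from 1853, 2290 and 2020 contacts, with dsRNA 2 segments between -0.13 and 1.26, and both ratios were below 0 without the 10% of bins with the fewest contacts.

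Both dsRNA maps were below S2 control for proximal 3R and 2L, but with dsRNA 1 both ratios were smaller than their SD over segments (0.17 and 0.24). The windows were read at the lower depth of these maps. A 1.5-fold lower contact with proximal 3R, 2L and X was reached by 4 of 50 windows with dsRNA 1 (5.3% of all windows) and by 7 with dsRNA 2 (6.28%), a 1.5-fold higher one by 2 (8.02%) and 2 (6.73%), and a 1.5-fold higher contact with arm bins of other arms by 3 (0.756%) and 2 (0.681%). At 500 to 1000 kb, 5 windows were 1.5-fold higher (0.908%) and 2 lower (1.14%) with dsRNA 1, and 1 was higher (0.454%) and 3 were lower (1.29%) with dsRNA 2. Contact with arm bins of other arms was 1.5-fold lower in 2 windows with dsRNA 1 (0.605%) and 0 with dsRNA 2 (0.756%). The exponent was -1.21 with dsRNA 1 and -1.28 with dsRNA 2, against -1.22 in S2 control. Without balancing, the S2 ratios for contact inside the region and with proximal 3R, 2L and X lay between -0.56 and -0.24, so that their size in S2 cells depended on the balancing of bins.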

How the data were processed

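The authors mapped the Hi-C reads of 23 libraries and pooled them into 7 maps of 10-kb bins. HiC-Pro 2.11.1 and the dm6 assembly are named in the submitters' processing notes. The deposited values are a signal, balanced contact per bin pair, divided by the authors by a factor for each bin, and no bin has a stated depth. Whole contacts were recovered from these factors: 100% of values under 20 were whole within 0.02. Groups come from the labels, and a map was given to its group by its name. Sample descriptions name the HP1-KD and H3K9M maps. The other maps, the embryo control and S2 control among them, were assigned from their names alone. The HP1-KD map's name holds a tag that can be read as leaving out some libraries.

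Each map was scaled so that contacts among used bins of the 5 arms and chromosome 4 summed to 50000000. Levels are means over bin pairs, with whole contacts behind each. The decay exponent is the slope of log10 contact on log10 distance, 100 kb to 1 Mb. Windows of 100 kb needed 5 used bins, and a window counted as past the fold at 1.5. Named windows were the 2 highest and 2 lowest by the HP1-KD ratio with proximal 3R, 2L and X, and sequence was taken from a bin of each. Insulation depth used a 100-kb diamond at minima of the control map. Intervals are 95% and cover counting error only. There being 1 map a group, no test was made. Members, partners and gene lists were chosen with earlier results of these data known. The alternatives were the scaling total, balancing, depth, borders, low bins, averaging and fold, and those for deep bins, repeat-rich bins and arm 2L were chosen after seeing the data. The steps were tested on simulated data. Python 3.11.15, numpy 2.4.6, pandas 2.3.3, scipy 1.17.1 and matplotlib 3.10.9 were used. Sequences and genes are from RefSeq, on the dm6 assembly.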

Additional observations from a re-analysis of the deposited data

Results flagged for a closer look

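Inside the region, HP1-KD embryos and both HP1 dsRNA maps of S2 cells lay on opposite sides of their controls at 2 distances. At 100 to 500 kb the log2 ratio was 0.035 in HP1-KD embryos, with -0.10 for dsRNA 1 and -0.11 for dsRNA 2. At 500 to 1000 kb it was 0.37 in HP1-KD embryos, with -0.021 for dsRNA 1 and -0.20 for dsRNA 2. These differences between embryos and S2 cells were not tested, and at 100 to 500 kb the HP1-KD ratio was -0.11 when maps were scaled to contacts at 20 kb or more.

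Contacts of the region with unplaced scaffolds and the mitochondrial genome entered no comparison of partners. They took 3.77% of its whole contacts in HP1-KD (95% Wilson interval 3.75 to 3.78), 3.09% in HP1-rescue (3.06 to 3.11) and 3.42% in H3K9M embryos (3.39 to 3.45), against 2.91% in control embryos (2.89 to 2.92), each above the control embryos. The intervals cover counting error only. On balanced contacts the HP1-rescue share was below control, with 10.95%, against 12.4% in control embryos, while HP1-KD (13.4%) and H3K9M (12.97%) were above it.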

How the results depend on the processing

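No library of a group could be left out, since the maps are pooled. No paired analysis was possible because each group is 1 map. Of 575 values for contacts, the exponent and insulation under an alternative, 497 stayed within 1 SD of the value under the main settings. The other 78 moved by 1 SD or more, and 504 of the 575 kept the sign. The SD was taken over segments, and for insulation over minima. Of the 65 results behind these values, 2 were past 1.5-fold, contact with the own arm in HP1-KD and in H3K9M embryos. They kept the sign in all 20 of their values. Ratios for single arms, for distance classes along an arm and for blocks of bins, some also past 1.5-fold, were not tried under the alternatives. Where a value moved, the cause was not tested, beyond the shift a change of the scaling total gives every ratio of a map: in HP1-KD -0.14 for contacts at 20 kb or more and 0.17 for contacts between chromosomes, in HP1-rescue 0.076 and 0.25. Bins with few contacts, the single map per group and repeats with copies elsewhere limit these values.

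Scaled to contacts between chromosomes, the log2 ratios were inside 20-100 kb 0.011 in HP1-KD, 0.076 in HP1-rescue, 0.13 in H3K9M, inside 100-500 kb 0.20 in HP1-KD, 0.11 in HP1-rescue, inside 500-1000 kb 0.53 in HP1-KD, 0.22 in HP1-rescue, inside 1-2 Mb 0.11 in HP1-rescue, inside 2-5 Mb 0.069 in HP1-KD, -0.0034 in HP1-rescue, with own arm 0.74 in HP1-rescue, with proximal 3R -0.24 in HP1-KD, -0.0053 in HP1-rescue, -0.18 in H3K9M, with proximal 2L 0.040 in HP1-rescue, with proximal X 0.40 in HP1-KD, 0.24 in HP1-rescue, with chromosome 4 -0.0076 in HP1-rescue and with arm bins elsewhere 0.67 in HP1-KD, 0.35 in HP1-rescue. Scaled to contacts at 20 kb or more, they were inside 20-100 kb -0.30 in HP1-KD, -0.10 in HP1-rescue, 0.038 in H3K9M, inside 100-500 kb -0.11 in HP1-KD, -0.068 in HP1-rescue, inside 500-1000 kb 0.22 in HP1-KD, inside 1-2 Mb -0.065 in HP1-rescue, inside 2-5 Mb -0.24 in HP1-KD, -0.18 in HP1-rescue, with proximal 3R -0.55 in HP1-KD, -0.18 in HP1-rescue, with proximal 2L -0.036 in dsRNA 2 and with arm bins elsewhere 0.36 in HP1-KD, 0.17 in HP1-rescue, 0.14 in dsRNA 2. Without balancing they were inside 20-100 kb -0.18 in HP1-KD, 0.11 in H3K9M, -0.39 in dsRNA 1, -0.24 in dsRNA 2, inside 100-500 kb -0.52 in dsRNA 1, -0.40 in dsRNA 2, inside 500-1000 kb -0.56 in dsRNA 1, -0.47 in dsRNA 2, inside 1-2 Mb -0.56 in dsRNA 1, -0.45 in dsRNA 2, inside 2-5 Mb -0.52 in dsRNA 1, -0.41 in dsRNA 2, with own arm -0.018 in dsRNA 1, with proximal 3R -0.48 in HP1-KD, -0.29 in H3K9M, -0.56 in dsRNA 1, -0.55 in dsRNA 2, with proximal 2L -0.44 in HP1-KD, -0.49 in dsRNA 1, -0.43 in dsRNA 2, with proximal X 0.069 in HP1-KD, -0.53 in dsRNA 1, -0.46 in dsRNA 2 and with arm bins elsewhere -0.056 in dsRNA 1, -0.081 in dsRNA 2. As a median over bins they were inside 500-1000 kb -0.090 in H3K9M, with own arm 0.32 in HP1-rescue, with proximal 3R -0.29 in H3K9M, with proximal X -0.022 in dsRNA 1 and with arm bins elsewhere 0.046 in HP1-rescue. With narrower partner regions they were with own arm 0.84 in H3K9M and with arm bins elsewhere 0.63 in HP1-KD, 0.52 in H3K9M. Without the 10% of bins with the fewest contacts they were with proximal 3R -0.29 in H3K9M, -0.077 in dsRNA 2 and with proximal X -0.14 in dsRNA 1. At equal depth the ratio was with proximal 2L -0.017 in dsRNA 2. In bins of 5000 or more contacts in control embryos, chosen after seeing the data, they were with proximal 3R -0.29 in H3K9M and with proximal X -0.081 in dsRNA 1. With the slope taken from 200 kb to 2 Mb, the difference from control was for the exponent 0.041 in HP1-KD, -0.015 in HP1-rescue, -0.075 in H3K9M, 0.078 in dsRNA 2.

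Without balancing, the shares of the contacts differed from control, in percentage points, for inside 20 kb or more -6.56 in HP1-rescue, -2.22 in H3K9M, -4.09 in dsRNA 1, -2.21 in dsRNA 2, own arm 7.16 in HP1-KD, 3.26 in H3K9M, 1.52 in dsRNA 1, 0.787 in dsRNA 2 and proximal 3R -0.626 in dsRNA 1, -0.704 in dsRNA 2. Without contacts under 20 kb they differed for inside 20 kb or more -1.53 in HP1-rescue, own arm 0.738 in dsRNA 1 and proximal 3R -2.71 in HP1-KD, -1.62 in H3K9M. Of the 50 windows, those past 1.3-fold numbered, with the share of all windows of the arms in brackets, for lower contact with proximal 3R, 2L and X 26 in HP1-KD (8.4%), 7 in HP1-rescue (15.1%), 8 in H3K9M (6.28%), 11 in dsRNA 1 (9.91%), 14 in dsRNA 2 (12.6%), higher contact with arm bins of other arms 41 in HP1-KD (8.62%), 2 in HP1-rescue (0.681%), 31 in H3K9M (8.7%), 6 in dsRNA 1 (2.5%), 5 in dsRNA 2 (2.34%) and higher contact at 500-1000 kb 32 in HP1-KD (94.7%), 4 in HP1-rescue (83.1%). Past 1.5-fold with maps scaled to contacts at 20 kb or more, they numbered for lower contact with proximal 3R, 2L and X 16 in HP1-KD (5.37%), 0 in HP1-rescue (4.08%), 1 in H3K9M (2.72%), higher contact with arm bins of other arms 3 in HP1-KD (0.832%) and higher contact at 500-1000 kb 3 in HP1-KD (85.6%).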
